A study of Caenorhabditis elegans with 12 samples.

Results

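Ribosome footprints were compared between DG3913 and VT1367, the strains that the labels give as wild type for the let-7 alleles of the series. The comparison took 6 of the 12 samples, 3 of each strain, found by joining the deposited count tables on gene name and scaling the 6 columns together. DG3913 is labelled lin-41(tn1541), a lin-41 allele that carries a GFP tag. VT1367 is labelled maIs105, an integrated reporter in which the col-19 promoter drives GFP. The genotype labels give a let-7 allele for neither. All animals were labelled mid L4, were whole Caenorhabditis elegans larvae, and had been grown at 20 °C for 45 h after feeding. Strain background, lin-41 allele, transgene, count table and sequencing depth vary together between the strains, and the point reached within mid L4 was not recorded, so these cannot be told apart. The labels letter the samples A to C without saying that they came from separate cultures, so p-values measure the spread between these samples. The other 6 samples, of VT3878, labelled lin-41(tn1541ma480);let-7(ma432), and VT3797, labelled maIs105;let-7(ma435), shared the tables of DG3913 and VT1367 respectively and served only for the last comparison.

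Total counts ran from 8405704 to 12726449 in DG3913 and from 21134794 to 44942212 in VT1367, so every VT1367 library was deeper than every DG3913 library. The first principal component of the 6 libraries held 65.6% of the variance and separated the strains. The second held 15.6%, with DG3913 replicates A and C at its ends. Every pair of replicates stood further apart than counting error allows, with chi-square divided by its degrees of freedom far above 1 and up to 28.2. Of 13443 genes tested, 3224 (24.0%) passed the threshold of 0.05 on the Benjamini-Hochberg adjusted p of edgeR's quasi-likelihood F-test and are termed called. Of these, 1463 (10.9%) were higher and 1761 (13.1%) lower in DG3913. Calls of at least 1 on the log2 scale (867 genes, 6.45%) were less even, with 243 genes (1.81%) higher and 624 (4.64%) lower. The median log2 difference of all genes was 0.0002 and the median absolute difference 0.233. Without VT1367 replicate A the count was 2121, and without VT1367 replicate B it was 2112. All log2 differences below are DG3913 minus VT1367, and CPM of single genes are footprint counts per 1000000 after scaling. Summed levels of lists and the CPM of count floors are per 1000000 total counts, without that scaling. The scaling factors ran from 0.9504 to 1.112, so a close overlap or gap between summed levels could change with scaling.

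Larvae of Caenorhabditis elegans shed their cuticle at the end of each stage. Within a stage the epidermis lays down a temporary precuticle matrix and then secretes collagens in waves, the furrow collagens early and other collagens later. The L4 stage ends with the cuticle of the adult. In hermaphrodites the germline makes sperm during L4 and then turns to oocytes. let-7 is a microRNA that represses lin-41. LIN-41 is an RNA-binding protein that holds back LIN-29 and MAB-10, which drive the change from larval to adult epidermis.

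lin-41, whose allele differs between the strains, was lower in DG3913. It stood at 46.2, 42.1 and 44 CPM in the DG3913 libraries and at 77.1, 88.9 and 95.8 CPM in the VT1367 libraries, and the strains did not overlap, as in 41.3% of all genes. The log2 difference was -0.99 (SE 0.10, edgeR adjusted p 1.88e-05), or 1.98-fold. lin-41 is at I:9334800-9342496 of WBcel235, on the minus strand, and of these strains DG3913 carries its tagged allele. The let-7 row was at 0 in all 6 libraries, which allows up to 0.357 CPM in the shallowest. A microRNA is not translated, so this row does not check a genotype.

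Genes of the precuticle were lower in DG3913 as a group. Of 10 precuticle matrix genes tested, 9 were called lower and none higher, where 13.1% of all genes were called lower. Their median log2 difference was -2.38, and their summed level was at most 149.8 CPM in DG3913 and at least 560.5 CPM in VT1367. The members that stood lowest were fbn-1, a fibrillin-like matrix protein, lpr-3, a secreted lipocalin of the apical matrix, and noah-1 and noah-2, zona pellucida proteins of the molting cuticle. In bulk samples fewer cells of a type and less RNA per cell cannot be told apart, and a footprint level joins how much mRNA there is with how well it is translated.

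fbn-1 stood at 7.11, 4.55 and 3.74 CPM in DG3913 and at 63.2, 39.6 and 41.7 CPM in VT1367. Its log2 difference was -3.28 (SE 0.27, edgeR adjusted p 1.22e-04), and it overlaps upp-1 on the other strand. lpr-3 stood at 19.5, 15.6 and 15.7 CPM in DG3913 and at 162, 105 and 91.4 CPM in VT1367, a log2 difference of -2.83 (SE 0.24, edgeR adjusted p 1.43e-04). In both genes the lowest VT1367 library was well above the highest DG3913 library, and VT1367 replicate A was the highest of the 6. noah-1 stood at 42.3, 34.7 and 28.7 CPM against 283, 181 and 166 CPM, a log2 difference of -2.58. noah-2 differed by -2.50. The lipocalin-related gene lpr-1 differed by -2.38, and the leucine-rich repeat genes let-4, sym-1 and egg-6 by -2.39, -2.3 and -1.48. let-4 and sym-1 overlap C44H4.4 on the other strand. The zona pellucida gene let-653, which shapes the lumen of epithelial tubes, differed by -1.82. dex-1, a zona pellucida gene of seam cells and neurons, was the member not called, with 11.8 ± 2.77 CPM in DG3913 and 15.1 ± 1.70 CPM in VT1367 (SD, n = 3 each, log2 difference -0.38, edgeR adjusted p 0.0995). Without DG3913 replicate A it was called, at -0.52 (edgeR adjusted p 0.0316).

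**Figure D1:**
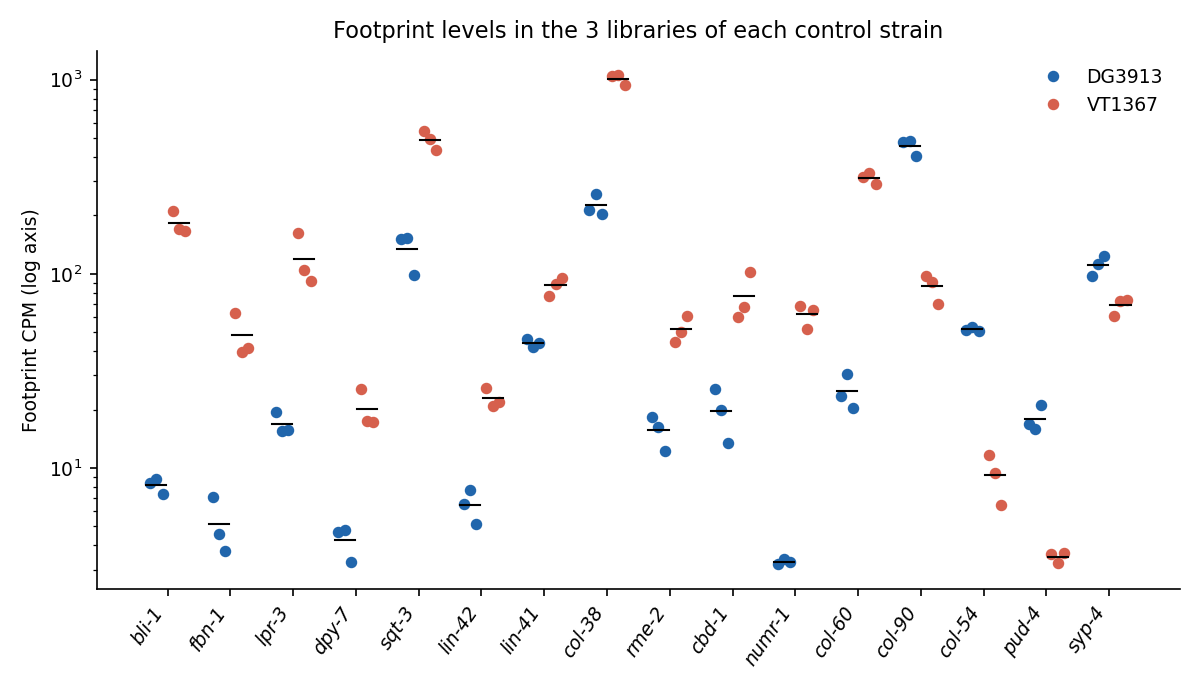
Footprint CPM (log axis) of 16 genes in each of the 3 DG3913 libraries (blue) and 3 VT1367 libraries (red), with a bar at the mean of each strain. The strains do not overlap in any gene shown, as in 41.3% of all genes, and the rule that named several of them required this. bli-1 and fbn-1 are lower in DG3913, while col-90, col-54, pud-4 and syp-4 are higher.

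The furrow collagens, which form the circumferential furrows and are made early in each molting cycle, were all lower in DG3913. All 6 were called, with log2 differences from -2.32 (dpy-8) to -1.70 (dpy-3) and a median of -2.16. dpy-7 stood at 4.66, 4.80 and 3.29 CPM in DG3913 and at 25.4, 17.5 and 17.2 CPM in VT1367, a log2 difference of -2.24 (SE 0.20, edgeR adjusted p 1.34e-05). Its strains did not overlap, as in 41.3% of all genes. dpy-2, dpy-9 and dpy-10 differed by -2.21, -2.06 and -2.11. The 6 members thus lay within a narrow range of each other. The count was 6 in each fit that left out a library.

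Of 6 mlt genes tested, named for molting defects, 5 were called lower and none higher (median -1.69). mlt-11, a protease inhibitor-like protein secreted by the epidermis, stood at 63.2, 56.4 and 43.1 CPM in DG3913 and at 386, 264 and 248 CPM in VT1367. Its log2 difference was -2.47 (SE 0.20, edgeR adjusted p 7.20e-05). mlt-10, mlt-9, mlt-4 and mlt-8 differed by -1.90, -1.87, -1.51 and -0.86. mlt-10 shares its span with T27A1.3 and lips-7 on the same strand. mlt-7, a peroxidase of the cuticle, was the exception, with 78.1 ± 15.3 CPM in DG3913 and 75.5 ± 9.88 CPM in VT1367 (SD, n = 3 each, log2 difference 0.04, edgeR adjusted p 0.849).

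Collagens known for their body-shape mutants showed a wider range. Of 14 members 13 were tested, 10 were called lower and none higher, and the median was -1.44. dpy-14, at 0 in DG3913 and at 1 to 9 counts in VT1367, was not tested. bli-1, a collagen of the struts of the adult cuticle, had the lowest value of the list. It stood at 8.33, 8.76 and 7.33 CPM in DG3913 and at 211, 171 and 167 CPM in VT1367. This was a 22.5-fold difference, or -4.49 on the log2 scale (SE 0.13, edgeR adjusted p 9.82e-10). bli-1 lies on chromosome II from 10708960 to 10712156 and overlaps dph-2 on the other strand. bli-2, also a strut collagen, differed by -2.43 and overlaps zyg-1. lon-3, which affects body length, differed by -2.23, and bli-6 by -1.39.

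sqt-3, a major cuticle collagen, stood at 152, 153 and 98.7 CPM in DG3913 and at 543, 498 and 432 CPM in VT1367, a log2 difference of -1.87 (SE 0.16, edgeR adjusted p 1.66e-05). sqt-1, sqt-2, rol-8 and rol-6 differed by -1.84, -1.51, -1.44 and -1.08. At the other end, dpy-5, dpy-13 and dpy-17 were not called, at -0.38, -0.40 and -0.57. dpy-4 was called at -0.51 (edgeR adjusted p 0.0298), but not without VT1367 replicate A (adjusted p 0.132) or replicate B (adjusted p 0.0927). dpy-13 was called without DG3913 replicate A, at -0.56, and dpy-5 with no filter on low counts (edgeR adjusted p 0.0439). DG3913 replicate C was the lowest of the 6 libraries in dpy-5, dpy-13, sqt-3 and rol-6.

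Enzymes that process collagen were split. Of 10 tested, 5 were called lower and none higher, with a median of -0.36. dpy-18 and phy-2, the prolyl 4-hydroxylase subunits, differed by -1.62 and -0.88. pdi-2, the protein disulfide isomerase of the same complex, stood at 1010, 961 and 629 CPM against 1844, 1528 and 1455 CPM, a log2 difference of -0.89 (SE 0.17, edgeR adjusted p 0.00314). dpy-11, a thioredoxin-like protein of the epidermis, differed by -1.27. The 5 members not called, among them the dual oxidase bli-3 and the protease dpy-31, lay between -0.24 and 0.04.

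The numbered col collagens, the bulk of the cuticle collagen family, moved both ways. Of 159 members 130 were tested, 37 were called lower and 15 higher, a share of 40.0% called, with a median of -0.16. Their summed level overlapped between the strains, at 40530 to 75160 CPM in DG3913 and 51380 to 58800 CPM in VT1367. Single members, by contrast, stood far apart.

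col-60 stood at 23.6, 30.6 and 20.4 CPM in DG3913 and at 316, 331 and 290 CPM in VT1367, the lowest log2 difference of the family at -3.65 (SE 0.14, edgeR adjusted p 5.05e-09). col-120, col-184 and col-106 followed at -3.18, -3.08 and -2.96. In the other direction, col-54 stood at 51.2, 53.4 and 50.6 CPM in DG3913 and at 11.7, 9.44 and 6.44 CPM in VT1367, a log2 difference of 2.51 (SE 0.17, edgeR adjusted p 5.91e-06). Neither gene overlapped between the strains, which the rule for naming them required. col-90 stood at 477, 484 and 403 CPM against 97.9, 91.0 and 70.0 CPM, a difference of 2.40, and overlaps let-754 on the other strand. col-41 and col-55 differed by 2.17 and 1.96.

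**Figure D2:**
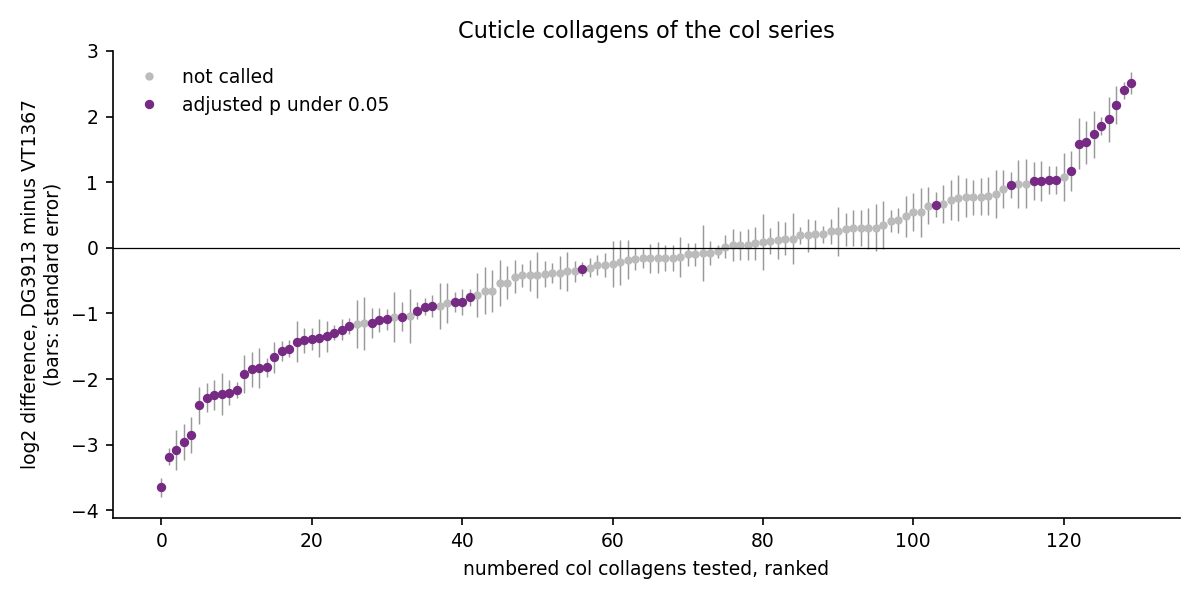
Log2 difference in footprints, DG3913 minus VT1367, of the 130 numbered col collagens tested, ranked, with bars for the standard error and purple points for adjusted p under 0.05. Called members lie at both ends, from -3.65 for col-60 to 2.51 for col-54, with most of the 78 members not called between them.

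A list of 7 collagens linked to the adult cuticle was drawn from an earlier account of these data, so it is not independent of them. Of the 7, 6 were called lower in DG3913 and none higher, with a median of -1.82. col-38 stood at 214, 259 and 204 CPM in DG3913 and at 1047, 1055 and 940 CPM in VT1367, a log2 difference of -2.17 (SE 0.12, edgeR adjusted p 1.28e-07). col-63, col-49 and col-138 differed by -1.82, -1.54 and -1.39. col-7 and col-62 differed by -2.24 and -2.28, but their counts were within 10% of each other in every library, so reads may be divided between them. col-19, the adult collagen whose promoter drives the maIs105 reporter, stood at 217 ± 105 CPM in DG3913 (SD, n = 3), with replicate A highest at 312 and replicate C lowest at 104, and at 410, 376 and 410 CPM in VT1367. The strains did not overlap in col-19, but DG3913 replicate C was far below the other libraries of its strain, and the difference of -0.88 was not called (SE 0.35, edgeR adjusted p 0.121). Without DG3913 replicate C it was -0.55 (edgeR adjusted p 0.00800), and without DG3913 replicate A it was -1.23 (edgeR adjusted p 0.0237).

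Cuticlins and astacin proteases stood nearer the background of 24.0%. Of 21 cuticlins tested of 35, 5 were called lower and 1 higher (28.6%, median -0.39). cut-2, a structural protein of the cuticle, stood at 202 ± 56.0 CPM in DG3913 and 487 ± 82.9 CPM in VT1367 (SD, n = 3 each), a log2 difference of -1.27 (SE 0.22, edgeR adjusted p 0.00391). Of 26 nas astacin proteases tested of 37, 4 were called lower and 2 higher (23.1%, median 0.02). nas-37, a protease needed to shed the old cuticle, differed by -1.17, and nas-9 by 1.47.

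Hedgehog-related genes and their patched-related relatives, which in nematodes take part in cuticle formation and molting, were mostly lower in DG3913. Of 36 hedgehog-related genes tested of 61, 20 were called lower and 2 higher (61.1%, median -0.92). wrt-4 stood at 43.7, 35.6 and 38.7 CPM in DG3913 and at 273, 236 and 221 CPM in VT1367, a log2 difference of -2.63 (SE 0.11, edgeR adjusted p 1.43e-08). Its strains did not overlap, a condition of the rule that named it. wrt-2 and wrt-6 differed by -2.60 and -2.59, and grl-27 by -3.57, from 30.8 ± 2.3 CPM in VT1367 to 2.57 ± 1.01 CPM in DG3913 (SD, n = 3 each). Of 24 patched-related genes tested of 26, 16 were called lower and 2 higher (75.0%, median -0.45). ptr-4, a membrane protein needed for molting, stood at 18.3 ± 1.04 CPM in DG3913 and 60.5 ± 9.79 CPM in VT1367 (SD, n = 3 each), a log2 difference of -1.73. ptr-10 and ptr-18 differed by -2.58 and -1.37. ptr-13 went the other way, at 29.7 ± 6.64 CPM in DG3913 and 8.66 ± 1.49 CPM in VT1367 (SD, n = 3 each, log2 difference 1.76, edgeR adjusted p 4.62e-05).

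**Figure D3:**
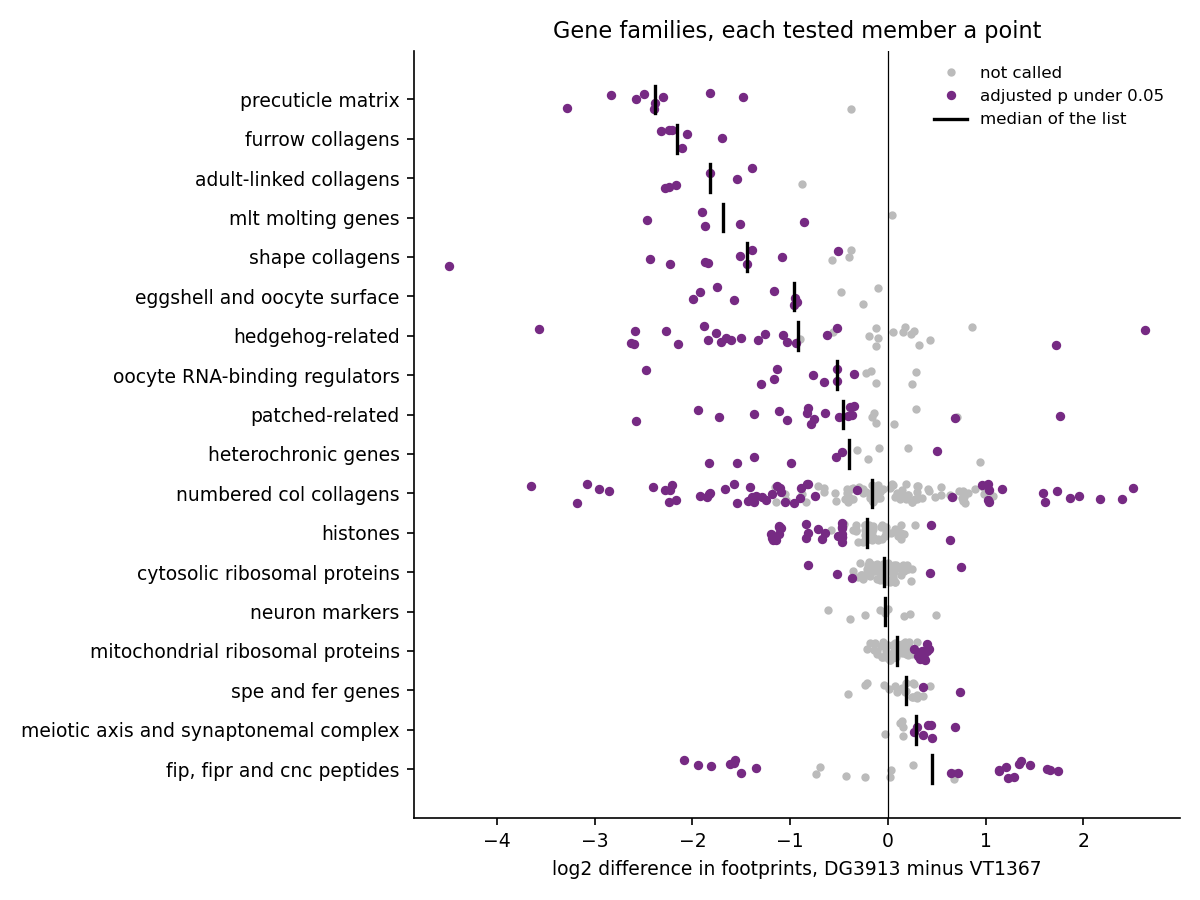
Log2 difference, DG3913 minus VT1367, of every tested member of 18 gene lists, with purple points for adjusted p under 0.05 and a bar at each list's median. Precuticle, furrow, adult-linked and mlt genes lie almost wholly below 0 with medians from -2.38 to -1.69, while ribosomal proteins and neuron markers centre on 0.

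Regulators of the molting cycle were lower or did not pass the test. Of 7 tested, 4 were called lower and none higher (median -0.63), and myrf-1 had no row under that name. lin-42, the worm relative of the clock protein Period, stood at 6.49, 7.69 and 5.16 CPM in DG3913 and at 25.8, 20.9 and 22 CPM in VT1367, a log2 difference of -1.83 (SE 0.15, edgeR adjusted p 3.64e-06). bed-3, a zinc finger factor, differed by -1.63, grh-1, a Grainyhead factor of the epidermis, by -1.29, and blmp-1, a Blimp factor, by -0.63. The strains did not overlap in any of the 4, as in 41.3% of all genes. nhr-23, the nuclear receptor that sets off each molt, stood at 16 ± 1.03 CPM in DG3913 and 15 ± 1.99 CPM in VT1367 (SD, n = 3 each), with overlap, and was not called (log2 difference 0.11, edgeR adjusted p 0.551). The nuclear receptors nhr-25 and nhr-85 were not called either, at 0.27 and -0.03.

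Among 12 heterochronic genes, which set the stage identity of larval cells, 6 were called lower and 1 higher (median -0.39), with lin-41 and lin-42 among the 6. lin-29, the zinc finger factor of the adult epidermis, stood at 2.82, 3.39 and 1.72 CPM in DG3913 and at 9.25, 6.72 and 7.0 CPM in VT1367, a log2 difference of -1.54 (SE 0.23, edgeR adjusted p 4.09e-04), and overlaps hmg-12 on the other strand. mab-10, its cofactor, stood at 1.1, 2.48 and 1.27 CPM against 4.68, 4.11 and 4.16 CPM, a log2 difference of -1.37 (SE 0.25, edgeR adjusted p 0.00182). Both, like lin-41 itself, were thus lower in DG3913 with no overlap, as in 41.3% of all genes. lin-28, which acts in early larvae and blocks let-7 maturation, was the member called higher, at 9.93, 12.6 and 12.6 CPM in DG3913 and 7.89, 8.05 and 9.21 CPM in VT1367 (log2 difference 0.50, edgeR adjusted p 0.0155). Its call was lost without DG3913 replicate B or C and without VT1367 replicate A or B (adjusted p 0.0553 to 0.0729). dre-1, an F-box protein, differed by -0.47, and daf-12, a steroid hormone receptor, by -0.53 (edgeR adjusted p 0.0268). The daf-12 call was lost without each of those same libraries (adjusted p 0.0606 to 0.104). hbl-1, a Hunchback-like factor and let-7 target, was not called (-0.32), nor were lin-14, lin-46, lin-66 and kin-20.

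Genes of oocyte formation were lower in DG3913. Of 11 eggshell and oocyte surface genes tested of 12, 8 were called lower and none higher (median -0.96). Of 14 oocyte RNA-binding regulators, 9 were called lower and none higher (median -0.52), although the summed level of the 14 overlapped, at 640.8 to 684.6 CPM in DG3913 and 598.8 to 688.1 CPM in VT1367. rme-2, the yolk receptor of oocytes, stood at 18.3, 16.3 and 12.3 CPM in DG3913 and at 44.7, 50.0 and 60.8 CPM in VT1367, a log2 difference of -1.75 (SE 0.15, edgeR adjusted p 1.10e-05). cbd-1, a chitin-binding protein of the eggshell, stood at 25.4, 19.9 and 13.5 CPM against 60.3, 67.6 and 102 CPM, a difference of -1.99 (SE 0.27, edgeR adjusted p 0.00225). Neither gene overlapped between the strains, as in 41.3% of all genes. In both, DG3913 replicate C was the lowest and VT1367 replicate C the highest library. cpg-1, a chondroitin proteoglycan of the eggshell, and egg-1, a receptor on the oocyte surface, differed by -1.92 and -1.58. Among the regulators, oma-2 and oma-1, the zinc finger proteins of oocyte maturation, differed by -2.48 and -1.17, and the Pumilio genes puf-5 and puf-3 by -1.30 and -1.14.

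Other germline groups differed less. Of 12 meiotic axis and synaptonemal complex genes, 7 were called higher in DG3913 and none lower, but by small amounts (median 0.28). syp-4, a protein of the central region of the complex, stood at 97.7, 112 and 123 CPM in DG3913 and at 60.4, 72.2 and 73.8 CPM in VT1367, the highest log2 difference of the list at 0.69 (SE 0.11, edgeR adjusted p 6.37e-04). syp-1 and the cohesin rec-8 differed by 0.44 and 0.41. The count of 7 was 3 without DG3913 replicate B, and 4 without DG3913 replicate C, VT1367 replicate A or VT1367 replicate C. Of 10 germ granule genes 3 were called higher, with glh-1 and glh-2, Vasa-like helicases, at 0.57 and 0.48. Sperm genes had shares called below the 24.0% of all genes, but near the shares called in a single direction. Of 31 major sperm proteins tested 4 were called lower and none higher (12.9%, median -0.27), where 13.1% of all genes were called lower. By sign, 28 of the 31 were lower. Of 22 spe and fer genes 2 were called higher and none lower (9.09%, median 0.19), where 10.9% of all genes were called higher. spe-44, a factor that drives sperm genes, differed by 0.74. Of the 54 nspa to nspe peptide genes tested of 64, 12 were called higher and 9 lower. Early zygotic genes of embryos were near 0, with none of 8 tested and a summed level of at most 0.331 CPM in any of the 6 libraries.

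Vitellogenins, the yolk proteins made in the intestine, spread widely among the DG3913 libraries. vit-2 stood at 9703, 7428 and 5089 CPM in DG3913 and at 4426, 4298 and 5083 CPM in VT1367, and vit-6 at 12974, 10148 and 7044 CPM against 6187, 5935 and 6786 CPM. vit-2 and vit-6 were called higher, at 0.69 and 0.67 (edgeR adjusted p 0.0277 and 0.0240). DG3913 replicate C was close to the VT1367 libraries in both. The calls of both were lost without DG3913 replicate A or B and without VT1367 replicate A or B (adjusted p 0.0872 to 0.111). vit-1 was not called (0.53, edgeR adjusted p 0.0700). It was called without DG3913 replicate C (0.74, adjusted p 0.00107), by DESeq2 (0.54, adjusted p 0.0232) and in the fit of all 12 libraries (0.53, adjusted p 0.0397). vit-3, vit-4 and vit-5 were not called, and vit-3 and vit-4 had counts within 10% of each other in every library.

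**Figure D4:**
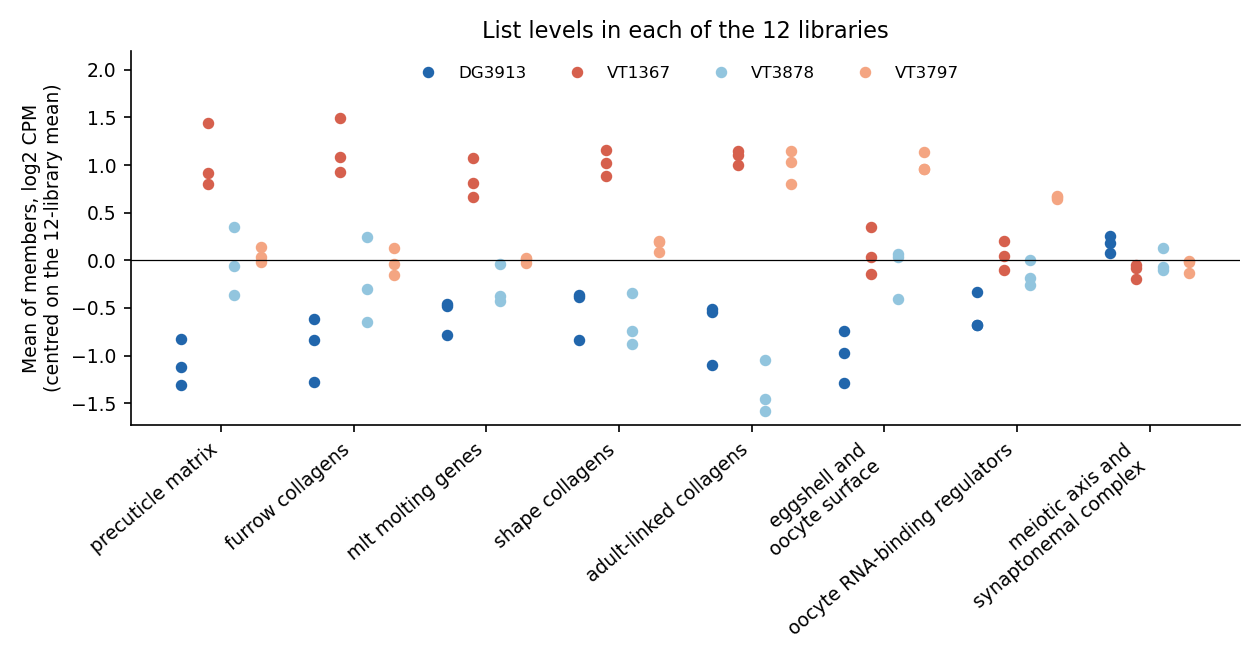
Mean level of the members of 8 lists in each of the 12 libraries, as log2 CPM centred on the mean of the 12 libraries, by strain. Precuticle genes are lowest in DG3913 and highest in VT1367 with both let-7 strains between them, as are furrow collagens except that VT3878 replicate B (-0.65) is just below DG3913 replicate A (-0.62), whereas the adult-linked collagens are low in DG3913 and VT3878 and high in VT1367 and VT3797.

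Many of the largest single differences were outside these lists. T02B5.3, on chromosome V from 14157663 to 14160862, stood at 20.3, 16.4 and 20.6 CPM in DG3913 and at 0.585, 0.921 and 0.820 CPM in VT1367, a log2 difference of 4.55 (SE 0.18, edgeR adjusted p 5.05e-09). In VT3878 and VT3797, scaled with all 12 libraries, it was at most 0.683 CPM, so DG3913 alone was high. F14H3.12 stood at 6.98, 4.96 and 7.03 CPM in DG3913 and at 0.195, 0.472 and 0.379 CPM in VT1367, a log2 difference of 4.04. T12G3.4 differed by 2.78 and overlaps bre-5 on the other strand, Y73F8A.26 by 2.76, Y43C5A.7 by 2.55, sul-3, a sulfatase, by 2.35 and T16G1.4 by 2.33. F45D11.14, F45D11.15 and F45D11.16 differed by 2.46, 2.43 and 2.42 and had counts within 10% of each other in every library. scl-2, a secreted SCP-like protein, stood at 163, 61.7 and 102 CPM against 14.3, 26.3 and 16.4 CPM, a difference of 2.50 (SE 0.39, edgeR adjusted p 0.00507), and was not called without VT1367 replicate C (adjusted p 0.0509). pud-4 and pud-1.1 differed by 2.38 and 2.3.

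On the other side, F52E4.5, on chromosome X from 3085828 to 3087345, had 0 counts in each DG3913 library and 384, 708 and 490 counts in VT1367. Set against a floor of 3 counts over the group, it was at least 180-fold lower in DG3913. It had 0, 1 and 1 counts in VT3878, which shares the table of DG3913, and 125, 131 and 196 in VT3797. F22F4.5 was also at 0 in DG3913, with 43, 80 and 66 counts in VT1367, at least 21.5-fold, and overlaps klp-13 on the other strand. mab-3, a DM-domain factor of male development, had 3 counts in each DG3913 library and 37, 71 and 67 in VT1367, a ratio of 6.62 with a 95% counting interval of 3.41 to 14.7. For C02E7.10 the ratio was 12.3 (interval 5.19 to 38.4), with 5 counts in all in DG3913, and for F35F10.13 it was 14.8 (interval 5.68 to 55), with 4. In all, 29 genes were at 3 counts or fewer in every DG3913 library while averaging at least 20 counts in VT1367, and 0 genes were so in reverse, where the VT1367 libraries were deeper. Of the 29, 10 were also at the floor in VT3878.

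numr-1 and numr-2, a pair of near-identical genes induced by metals, stood at 3.19, 3.39 and 3.29 CPM and 2.94, 3.39 and 3.22 CPM in DG3913. In VT1367 numr-1 stood at 68.7, 51.9 and 65.4 CPM, and the log2 differences of the pair were -4.23 and -3.97. Reads of one may have been counted for the other. tiar-2, an RNA-binding protein of the TIA-1 family, stood at 2.57, 3.56 and 2.84 CPM in DG3913 and at 36.5, 40.7 and 44.3 CPM in VT1367, a log2 difference of -3.74 (SE 0.14, edgeR adjusted p 5.05e-09). In VT3878 and VT3797 tiar-2 ran from 38 to 53.1 CPM, so DG3913 stood apart from the 3 other strains. F58E6.13, dao-4, Y32B12B.4 and R17.3 differed by -3.88, -3.85, -3.44 and -3.25, each with no overlap, as the rule for naming them required. dod-21 differed by -2.93, but its counts were within 10% of those of C32H11.9 in every library.

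Ribosomal proteins, proteasome subunits, tRNA synthetases and muscle filament genes had shares called below the background of 24.0%, and histones and heat shock proteins shares above it; these gaps were not tested. Of 78 cytosolic ribosomal proteins 5 were called (6.41%, median -0.04), of 63 mitochondrial ribosomal proteins 9, all higher in DG3913 (14.3%, median 0.09), and of 32 proteasome subunits 2 (6.25%). Of 32 tRNA synthetases 0 were called by edgeR or DESeq2, and 2 had an unadjusted edgeR p under 0.05. Of 72 histones 22 were called lower and 2 higher (33.3%, median -0.21), although many are near copies of each other, between which reads may be shared. his-4 differed by -1.20 and his-1 by 0.64. Of 21 heat shock proteins 6 were called lower and 1 higher (33.3%, median -0.22), and hsp-16.48, whose counts were near equal to those of its copy, differed by -1.17. Muscle filament genes were called in 3 of 21 cases (14.3%, median -0.18). Their summed level was nonetheless lower in DG3913 without overlap, at 30590 to 34350 CPM against 37700 to 45250 CPM in VT1367.

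Defence and metabolic families spread in both directions. Of 30 fip, fipr and cnc peptide genes tested of 46, 13 were called higher and 8 lower (70.0%, median 0.45). fipr-10 stood at 9.44, 11.3 and 12.9 CPM in DG3913 and at 3.99, 3.06 and 3.28 CPM in VT1367, a log2 difference of 1.74, and overlaps mec-9 on the other strand. fipr-19 differed by -2.09. Lysozymes and intestinal proteases were called higher in 10 and lower in 3 of 30 cases (43.3%, median 0.17), with lys-10 at 1.25. Cytochromes P450 (10 higher, 8 lower of 53), UDP-glycosyltransferases (7 higher, 13 lower of 54), glutathione transferases (4 higher, 6 lower of 35) and fatty acid genes (8 higher, 12 lower of 65) had medians between -0.09 and 0.13. C-type lectins (24.3%), nuclear hormone receptors (23.3%) and transthyretin-related genes (20.8%) were near the background. Of 84 neuropeptides and insulins 6 were called higher and 10 lower. F-box and MATH genes were below the background (11.6% of 147 tested).

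Markers of tissues were examined beside these groups, against the 24.0% of all genes called (10.9% higher and 13.1% lower). Neuron markers were called in 0 of 9 cases by edgeR or DESeq2, with 3 at an unadjusted edgeR p under 0.05 (median -0.03, summed level 155.3 to 166.7 CPM in DG3913 and 151.1 to 167.5 CPM in VT1367). Intestine markers were called once in each direction among 7, near that share (28.6%, 3053 to 3374 CPM against 2971 to 3157 CPM). Pharynx markers were called higher in 3 of 5 cases (301.9 to 383.2 CPM against 258.7 to 296.6 CPM), with tnt-4 and tnc-2, muscle troponins, at 0.79 and 0.78. Seam and epidermis markers were called lower in 4 of 8 cases, but their summed level overlapped between the strains (501.1 to 685.7 CPM against 570.7 to 686.6 CPM). The 4 included egl-18, a GATA factor of seam cells, at -1.39 and nhr-74, a nuclear receptor, at -1.06, while the GATA factors elt-1 and elt-3 were not called. Vulva and somatic gonad markers were called lower in 5 of 9 cases (23.34 to 27.84 CPM against 32.73 to 35.44 CPM), with the LIM factor lin-11 at -0.74. At equal depth lin-11 was not called (-0.47, edgeR adjusted p 0.177). Body muscle markers were called lower in 2 of 8 cases (median -0.35), where 13.1% of all genes were called lower. Their summed level was lower in DG3913 without overlap, at 8947 to 10900 CPM against 11200 to 13700 CPM. The list shares unc-54, myo-3, unc-15 and unc-27 with the muscle filament genes, so the sums of these lists are not independent. The part of these tissues in the differences of the cuticle and oocyte genes was not tested. By chromosome, 19.7% (III) to 26.9% (X) of tested genes were called, and X had the lowest median, at -0.136.

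The same direction of comparison was available in libraries not used above, VT3878 against VT3797, which share the tables and, per the labels, part of the genotypes of DG3913 and VT1367, but carry different let-7 alleles. Of 13139 genes tested there, 2248 (17.1%) were called in edgeR's test, and without VT3797 replicate B 1368 were. Of 13052 genes tested in both comparisons 1143 were called in both, which was 36.4% of the calls between the control strains and 51.5% of those between the let-7 strains. Of these 1143 genes, 1062 (92.9%) had the same direction and 81 the opposite one. Across the 13052 genes the log2 differences had a Pearson correlation of 0.581, where the points share tables and strain backgrounds and genes are not independent.

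The lists fell into groups in this second comparison. The adult-linked collagens were lower in VT3878 in 7 of 7 cases, where 8.45% of all genes were called lower (median -1.95, against -1.82 between the control strains). That list was drawn from an earlier account of these data, so its count is not independent of these libraries either. The oocyte regulators were lower in 11 of 14 cases (median -0.83), and the eggshell and oocyte surface genes in 11 of 11 (median -1.22). The precuticle genes were not lower as a group in VT3878, with 1 called lower and 1 higher of 10 (median -0.10). The furrow collagens were called in 0 of 6 cases by edgeR, with 1 at an unadjusted p under 0.05 (median -0.16). noah-1 stood at 76.7, 59.4 and 103 CPM in VT3878 and at 93.9, 89.2 and 82.5 CPM in VT3797, so these strains overlapped. col-38 stood at 97.2, 98.1 and 123 CPM in VT3878 and at 642, 568 and 584 CPM in VT3797, with no overlap. lin-41 differed by -1.23 between VT3878 and VT3797, where its alleles differ again.

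The difference between these differences was tested in a single fit of all 12 libraries. It equals, with the sign turned, the difference between the changes from control strain to let-7 strain within each table. It is therefore no separate evidence on those changes. VT3878 is labelled with another lin-41 allele than DG3913, so the change in their table is not of let-7 alone. Of 13597 genes tested, 759 (5.58%) were called, 551 (4.05%) of them with a lower value between the control strains and 208 (1.53%) with a higher one. The difference was called for 7 of 10 precuticle genes, 5 of 6 furrow collagens, 5 of 6 mlt genes and 6 of 13 shape collagens, each lower between the control strains. edgeR called it for 0 of 7 adult-linked collagens, 0 of 11 eggshell and oocyte surface genes, 0 of 14 oocyte regulators and 0 of 12 meiotic genes, among which 3, 0, 6 and 2 had an unadjusted p under 0.05. For lin-41 it was 0.24 (SE 0.14, edgeR adjusted p 0.420). For fbn-1 it was -3.66 (edgeR adjusted p 1.72e-04), and for noah-1 -2.44 (edgeR adjusted p 0.00107). A difference that was not called does not show that both pairs of strains differed alike.

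**Figure D5:**
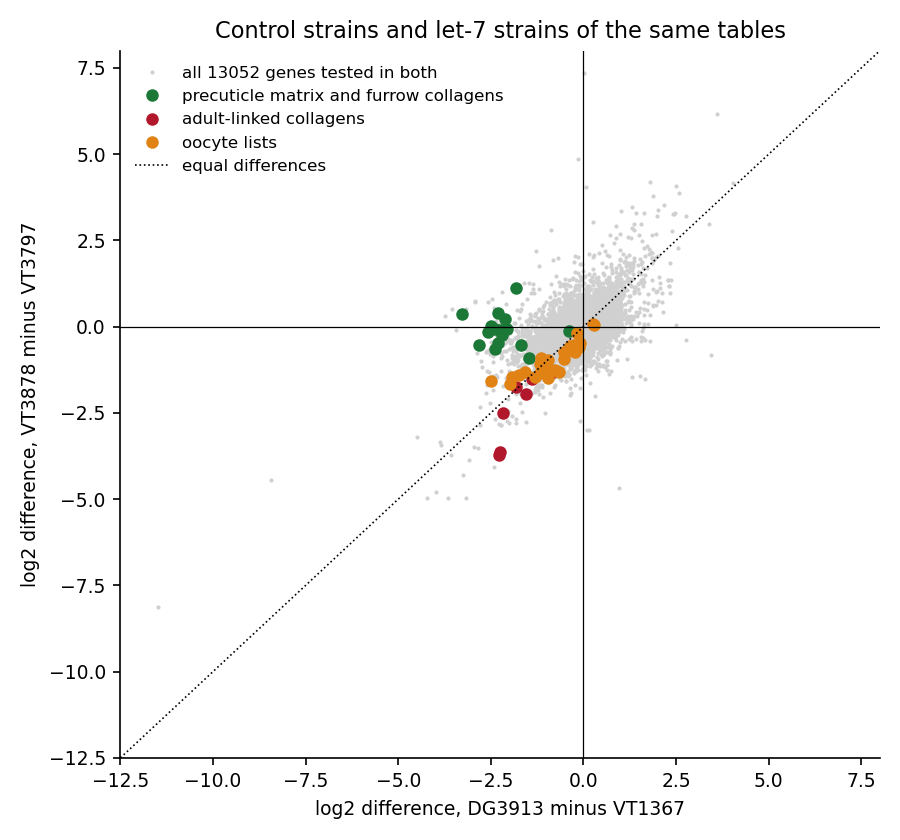
Log2 difference between the control strains (horizontal, DG3913 minus VT1367) and between the let-7 strains (vertical, VT3878 minus VT3797) of the 13052 genes tested in both, with the dotted line at equal differences. Precuticle and furrow genes (green) have medians of -2.38 and -2.16 on the horizontal axis and -0.10 and -0.16 on the vertical one, where let-653 is highest (1.12) and egg-6 lowest (-0.90); adult-linked collagens (red) and oocyte genes (orange) are below 0 on both axes except gld-1 and pos-1, which are above 0 on both; the position of F52E4.5 at the lower left, at 0 counts in DG3913, depends on the prior count.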

How the data were processed

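The values are raw counts of ribosome footprints per gene, deposited by the authors in a pair of tables, one with DG3913 and VT3878 and one with VT1367 and VT3797. Per the labels' protocols, lysates of whole larvae were treated with RNase I and monosomes were collected from sucrose gradients. Per the submitters' processing notes, cutadapt 1.9, Bowtie2 2.3.4.3 and the build WBcel235 were used, with no role stated. Whether counting was strand-specific, and what was done with reads of repeated sequence, are not given in the sources used here. Values of genes that overlap another on either strand, or are near copies, are therefore uncertain. Among the genes named these include, beside those marked in the text, col-19, dpy-4, dpy-8, lon-3, col-41, col-138, nas-37, wrt-2, ptr-10, ptr-18, bed-3, nhr-85, mab-10, lin-28, egg-1, puf-3, syp-1, vit-2 and tnc-2.

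The tables were joined on gene name. Of 46722 rows in the longer table, 46711 were in both, and the 11 others held at most 0.0211% of a library. All 12 columns of samples were used and 0 rows named no gene. The 6 control columns were scaled together with TMM and tested with edgeR 4.0.16 (R 4.3.3, limma 3.58.1), using filterByExpr, robust quasi-likelihood fits and Benjamini-Hochberg adjustment over all genes tested, with a threshold of 0.05. The let-7 strains were fitted alone in the same way, and the difference of the differences in a fit of all 12 libraries. A biological coefficient of variation of 10.4% was estimated for the control fit. On data simulated from it (13416 genes, 200 changed by 1 on the log2 scale) 89.9% of the changed genes were recovered. Of the calls made there 3.78% were false. The simulation gave every gene the same variation and set no library apart, so these shares need not hold for the real libraries. Errors of CPM are SDs over 3 libraries, and counting intervals and floors cover counting error only. An exact permutation test of 3 against 3 libraries cannot go below 0.1, so none was used. Alternatives were DESeq2 1.42.0, other scalings and count filters, equal depth, a replicate block, a minimum change and leaving out each library.

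The comparison, its gene lists and the named genes were chosen with earlier results of these data known. The rule named lin-41 and let-7, the 15 largest called differences in each direction with at least 50 counts on average and no overlap, up to 4 members of each list in each direction, and whole lists that are defined by name. The remaining genes named, such as mab-3, spe-44 and members not called, were chosen after their values were seen. Chromosome positions come from the Ensembl annotation of WBcel235, in which 98.3% of the genes tested have a position.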

Additional observations from a re-analysis of the deposited data

Results flagged for a closer look

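The difference between DG3913 and VT1367 was set against the difference between VT3878 and VT3797 by a test of the difference itself, in edgeR's quasi-likelihood fit of 12 libraries. It was called for 759 genes, and leaving out a library gave 542 to 775. Among the genes named above, the following were called, each as the control difference minus the let-7 difference on the log2 scale.

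Of the precuticle matrix genes, it was -3.66 for fbn-1, -2.94 for let-653, -2.70 for sym-1, -2.52 for noah-2, -2.44 for noah-1, -2.32 for lpr-1 and -2.29 for lpr-3. Of the furrow collagens, it was -2.33 for dpy-10, -2.16 for dpy-7, -1.99 for dpy-9, -1.97 for dpy-2 and -1.86 for dpy-8. Of the mlt genes, it was -2.32 for mlt-4, -1.87 for mlt-11, -1.26 for mlt-9, -1.05 for mlt-10 and -0.89 for mlt-8. Of the shape collagens and collagen enzymes, it was -1.31 for lon-3, -1.30 for bli-1, -1.12 for rol-8, -1.11 for sqt-2, -1.01 for bli-2, -0.92 for rol-6, -0.95 for dpy-11 and -0.94 for phy-2. Of the hedgehog-related and patched-related genes and the astacin proteases, it was -3.29 for ptr-10, -1.89 for wrt-2, -1.30 for ptr-4, -0.94 for wrt-6, -0.71 for wrt-4 and -1.13 for nas-37. Of the regulators of molting and stage, it was -1.78 for daf-12, -1.72 for hbl-1, -1.70 for nhr-74, -1.40 for grh-1, -1.12 for blmp-1, -0.96 for lin-42 and -0.43 for dre-1. Of the numbered collagens, it was 1.79 for col-120, 1.31 for col-60 and -1.57 for col-54. Of the other genes, it was 4.47 for T02B5.3, 3.16 for T12G3.4, 2.46 for scl-2, 1.67 for fipr-10, 1.12 for pud-1.1, 1.01 for pud-4, -4.05 for C02E7.10, -4.04 for tiar-2, -3.67 for dod-21 and -3.35 for Y32B12B.4.

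This value contains the control difference, so agreement in sign between them is in part fixed in advance. In most of these genes the sign of the control difference and of this value were the same. col-120, col-60 and col-54 were exceptions, where the difference between the let-7 strains was the larger (-4.97, -4.96 and 4.08). In tiar-2 and T02B5.3 DG3913 stood apart from the 3 other strains. In T12G3.4 VT1367 stood apart, at 2.53 to 2.76 CPM against 18.0 to 28.6 CPM in every library of the 3 other strains. In daf-12, let-653, mlt-4, blmp-1, nhr-74, dod-21 and T12G3.4 both differences were called with opposite signs. Between the control strains and between the let-7 strains, daf-12 was at -0.53 and 1.25, let-653 at -1.82 and 1.12, mlt-4 at -1.51 and 0.81, and blmp-1 at -0.63 and 0.49. In the same order nhr-74 was at -1.06 and 0.64, dod-21 at -2.93 and 0.74, and T12G3.4 at 2.78 and -0.39. For C02E7.10 the value rests on 5 counts in all in DG3913. Which of the let-7 alleles, the lin-41 alleles, the transgene, the strains or the tables goes with each value cannot be told apart.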

How the results depend on the processing

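Of 2098 values of 141 named genes under up to 15 settings each, 2051 kept their direction and their side of the threshold, 24 lost their call and 12 gained one. The 11 that changed sign were of genes not called. With a library left out, lin-66 ranged from -0.20 to 0.04, mlt-7 from -0.10 to 0.18, nhr-23 from -0.01 to 0.18 (-0.03 at equal depth), nhr-85 from -0.21 to 0.12, vit-3 from -0.30 to 0.10, vit-4 from -0.27 to 0.13 and vit-5 from -0.00 to 0.40. The count of 3224 genes called between the control strains ranged from 2112 to 3650 when a library was left out, with 64.7% of the same genes called without VT1367 replicate A and 64.4% without VT1367 replicate B. It was 2897 with DESeq2, 2477 at equal depth, 2875 with at least 10 counts in every library, 3299 with no filter, and 867 when a change of at least 1 on the log2 scale was also required. With that minimum the calls over all lists fell from 501 to 222, those of the oocyte regulators to 4, of the eggshell genes to 5, of the meiotic genes to 0 and of the patched-related genes to 6; fewer calls follow from the minimum itself. Leaving out a library gave 374 to 555 calls over all lists, 6 to 10 of the oocyte regulators, 7 to 10 of the eggshell genes, 14 to 16 of the patched-related genes and 3 to 7 of the meiotic genes. For the let-7 strains the count of 2248 ranged from 1368 to 2797, lowest without VT3797 replicate B. The cause was not tested. The labels give replicate letters, whose libraries deviated together with correlations of 0.165, -0.0325 and 0.172. Of 6 libraries, 4 correlated best with their own letter. These values are mixed and do not settle whether the letters pair the samples, and the main fit did not use the letters. With the replicate letter as a block 4004 genes were called, 98.5% of the main calls among them. In that fit cbd-1 (edgeR adjusted p 0.0735) and scl-2 (edgeR adjusted p 0.116) were not called. There dex-1, dpy-5 and dpy-13 gained a call (edgeR adjusted p 0.0222, 0.0107 and 0.0235). Depth limits genes at few counts in DG3913, where 3 counts are 0.357 CPM in the shallowest library.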

Other observations

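Several small families, some of them part of the lists above, were picked after their values were seen, so they are given as values only. Of all genes tested, 10.9% were called higher in DG3913 and 13.1% lower. All 6 pud genes were called higher in DG3913, with log2 differences from 2.07 to 2.38. Their summed level was 2246 to 3361 CPM against 507.1 to 548.4 CPM in VT1367. pud-1.1 and pud-1.2 had near-equal counts, as had pud-2.1 and pud-2.2, so the 6 are fewer independent measurements. All 6 were also called higher in VT3878 than in VT3797 (median 1.27, against 2.29 between the control strains), and the difference between these was called for all 6. Of 11 prx peroxins, which build peroxisomes, 6 were called higher in DG3913 (median 0.46), with prx-11 at 0.71. Of 6 enu genes 5 were called higher (median 0.36), but enu-3.3 and enu-3.5 had counts within 10% of each other in every library. Between the let-7 strains edgeR called 0 of the 6 enu genes, with 0 at an unadjusted p under 0.05 (median -0.05). Of 5 dlc dynein light chains tested 3 were called higher in DG3913 and none lower (median 0.57, lowest -0.30). Their summed level was nonetheless lower in DG3913, at 276.8 to 306.2 CPM against 310.2 to 362.2 CPM in VT1367, a gap that scaling could change. Of 21 fipr genes tested, which are part of the fip, fipr and cnc list, 12 were called higher and 5 lower (median 0.72, from -2.09 to 1.74).

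Lower in DG3913 were 7 of 7 bus genes tested (median -0.97), known from mutants with altered bacterial adhesion to the cuticle, with bus-17 at -1.50. Of 7 lpr lipocalin-related genes 6 were called lower (median -2.43), of 9 wrt genes tested 6 (median -2.15) and of 5 mltn genes tested 4 (median -1.70). The lpr and wrt families overlap the precuticle and hedgehog-related lists. Between the let-7 strains 1 of 7 lpr genes was called lower (median -0.12) and 5 of 9 wrt genes (median -0.46).

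Among the remaining lists, 2 of 19 other sperm genes were called lower and none higher (10.5%), 1 of 8 germ stem cell and meiotic entry genes was called lower (12.5%), 4 of 10 dod genes were called lower and none higher (40.0%), and 12 of 69 abu and pqn genes were called lower and 7 higher (27.5%). The pals genes had no rows under that name.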
